A study of Rattus norvegicus with 22 samples.

Results

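Embryo bone at gestational day 20 was compared with the whole embryo at day 12 in Wistar rats, using all 4 bone arrays and all 5 whole embryo arrays of the 22 arrays of the series. The members are these 9 samples, chosen by their tissue and day labels and not by any measured value. The bone samples were 1 control, 1 from dams given the compound EMD 82571 (also written MSC1096199) at 50 mg/kg/day (EMD50), 1 at 150 mg/kg/day (EMD150) and 1 from dams given retinoic acid (RA) at 12 mg/kg/day. The whole embryo samples covered the same conditions, with 2 RA arrays, RA5 and RA56, codes that no label explains. The RA bone array carries the code RA56, and no bone array carries RA5. Both whole embryo codes were treated as RA. The protocols give daily dosing over gestational days 6-11 and 6-17. Which bones were taken, how many embryos went into a sample, and whether samples shared a dam are not stated. Each condition had 1 bone array, so the p-values below measure the spread between these samples after the treatment is taken into account, and that spread may be technical. Organ and day both differ between the groups and cannot be told apart in this comparison. Embryo liver of day 20 (4 arrays, the same conditions) was therefore set beside some results as an organ of the same day.

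RNA was labelled from its poly(A) end and hybridised to single-colour arrays that read each gene with 1 or more sets of short probes. All values are log2 RMA values (robust multi-array averaging), so a difference of 1 is a 2-fold change, and a level is comparable between samples for the same gene but not between genes. Differences are embryo bone minus whole embryo, as log2 difference ± SE from limma with treatment as a factor, and folds are the same differences turned back to a linear scale. No lowest detectable level was set, so a fold against a very low level may not be a ratio of RNA amounts. A gene was called at an adjusted p under 0.05. In bulk tissue, fewer cells of a type and less RNA per cell cannot be told apart.

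Bones of the limbs and trunk form on a cartilage model. Chondrocytes lay down type II collagen and aggrecan, enlarge and switch to type X collagen, and the mineralised cartilage is then invaded by vessels and osteoclasts and replaced by osteoblasts that make type I collagen and bone sialoprotein. Skull bones form without a cartilage model. The midgestation rat embryo has no ossified skeleton yet. Its red cells carry embryonic haemoglobins made in the yolk sac, and its tissues, above all the neural tube, hold many dividing progenitors.

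The promoters of 2 genes gained and 2 genes lost with the largest or best-known differences are shown here, since the same genes open the skeletal and the blood results. Each is the 250 bases before the RefSeq gene start on the GRCr8 assembly, given 5′ to 3′ on the gene's own strand, which is the minus strand for all 4 genes. Capitals mark 3 short motifs, searched on both strands. The RUNX core, read by the RUNX factors of bone and blood, was searched as TGTGGT and ACCACA. The GATA motif of red cell factors was searched as AGATAA or AGATAG and in their variants TGATAA or TGATAG, with the reverse complements of all 4, and the TATA box as TATAAA and TTTATA.
Ibsp promoter, chr14:5757243-5757492: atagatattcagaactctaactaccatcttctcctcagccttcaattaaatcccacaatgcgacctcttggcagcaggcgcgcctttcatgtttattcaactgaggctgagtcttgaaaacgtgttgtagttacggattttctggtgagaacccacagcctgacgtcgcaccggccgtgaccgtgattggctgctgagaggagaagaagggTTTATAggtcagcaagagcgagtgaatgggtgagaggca
Bglap promoter, chr2:176137319-176137568: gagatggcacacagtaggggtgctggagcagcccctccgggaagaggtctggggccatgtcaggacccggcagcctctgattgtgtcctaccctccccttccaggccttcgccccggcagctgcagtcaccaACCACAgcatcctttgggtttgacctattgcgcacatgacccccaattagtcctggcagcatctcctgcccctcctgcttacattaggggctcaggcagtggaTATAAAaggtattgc
Hbz promoter, chr10:15849758-15850007: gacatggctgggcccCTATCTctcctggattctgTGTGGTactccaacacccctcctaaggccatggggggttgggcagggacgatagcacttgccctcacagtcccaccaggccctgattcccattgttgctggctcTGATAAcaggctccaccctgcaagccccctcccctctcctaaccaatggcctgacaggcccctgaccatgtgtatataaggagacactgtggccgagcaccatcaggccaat
Hbe1 promoter, chr1:167696281-167696530: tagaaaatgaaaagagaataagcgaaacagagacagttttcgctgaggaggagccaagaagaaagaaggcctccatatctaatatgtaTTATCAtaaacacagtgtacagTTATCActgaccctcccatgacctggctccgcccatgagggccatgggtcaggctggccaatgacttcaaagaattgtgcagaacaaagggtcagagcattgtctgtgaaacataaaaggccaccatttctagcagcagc
The Bglap window holds 1 RUNX core, whose first base lies 118 bases before the start, and 1 TATA box 15 bases before it. The Ibsp window holds a TATA box in reverse orientation 39 bases before the start. Hbz has GATA motifs at 235 and 112 bases and a RUNX core at 216 bases before its start, and Hbe1 has GATA motifs at 162 and 140 bases. Of 27457 rat promoter windows of this length, 14.1% hold the RUNX letters, 26.7% the GATA letters and 13.1% the TATA letters, so a match is a description of the sequence and not of binding.

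The 9 arrays divided by group. Pairs of bone arrays correlated across probe sets with r of 0.954 to 0.984 (6 pairs), pairs of whole embryo arrays with 0.97 to 0.996 (10 pairs), and pairs between the groups with 0.872 to 0.908 (20 pairs), as a description over probe sets that share arrays. The EMD50 bone array stood apart in RNA quality. Its GAPDH control probes read 2.72 log2 units more at the 3′ end than at the 5′ end, against 0.57 to 0.83 in the other 8 arrays. In the control and RA bone arrays genes of liver were high, as described further on. Results that depend on 1 array are given with their value without it. Of 15866 probe sets tested, 2256 (14.2%) were higher in embryo bone and 3100 (19.5%) lower, 33.8% in all. Without the control array of bone the lower count was 2012, and without the control array of whole embryo it was 2037. With treatment in the model and 1 control array in each group, leaving out either array removes the same contrast. The 2 fits therefore estimate the same difference, and this also holds for EMD50 and EMD150. Losses given below for an array of either group are thus 1 check, and cannot say in which group the array matters. Without both the control and the RA bone arrays, an alternative chosen after seeing the data, the counts were 1191 higher and 1210 lower, with 2 bone arrays left. At least 2-fold differences among the called probe sets numbered 843 higher (5.31%) and 903 lower (5.69%). With 1 probe set for each of 10411 genes, 1604 genes (15.4%) were higher and 2314 (22.2%) lower, 37.6% in all, and the median difference was 0.000. These shares are set beside the counts of gene lists below as a background. The lists were chosen with earlier results of these data known, so a share above the background is a description and not a test.

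Bone matrix was among the lists with the largest shares of higher genes, below fibrous matrix and epidermis in both share and median. Of 31 measured genes for bone matrix and mineralisation, 27 were higher in embryo bone and 1 was lower, with a median difference of 2.12. Ibsp, which encodes the bone sialoprotein that seeds mineral, had the largest gain of all genes. It measured 12.91, 12.21, 12.18 and 12.74 in the control, EMD50, EMD150 and RA bone arrays, against 5.41, 5.43, 5.47, 5.42 and 5.34 in the control, EMD50, EMD150, RA5 and RA56 whole embryo arrays, and single arrays are listed in this order throughout. The groups lay far apart, and the difference was 7.11 ± 0.17 (limma, adjusted p = 2.46e-08), a 138-fold change. Ibsp was also at 5.43 to 5.57 in embryo liver, and whether such low values are background signal was not tested. Spp1, the gene of osteopontin, an acidic mineral-binding protein, measured 13.45, 12.32, 13.24 and 13.16 in bone and 7.74, 7.92, 7.81, 7.86 and 7.73 in whole embryo. All bone arrays lay above all embryo arrays, with the EMD50 bone array lowest among the bones, and the difference was 5.24 ± 0.20 (adjusted p = 3.04e-07). Bglap encodes osteocalcin, made by mature osteoblasts. Its levels were 11.30, 10.42, 9.34 and 10.94 in bone and 6.37, 6.40, 6.26, 6.27 and 6.30 in whole embryo, a difference of 4.21 ± 0.26 (adjusted p = 4.42e-06), and the EMD150 bone array was the lowest of the bones.

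Further bone genes differed in how far they varied. Col1a1, a chain of type I collagen and the main protein of bone, measured 14.60, 14.55, 14.56 and 14.68 in bone and 11.61, 10.58, 10.58, 12.79 and 11.56 in whole embryo. The bone arrays were nearly equal, whereas the embryo arrays spread over more than 2 log2 units with RA5 highest, and the difference was 3.30 ± 0.31 (adjusted p = 6.58e-05). Phex, an endopeptidase of osteoblasts and osteocytes that controls phosphate handling, ranged from 6.30 to 9.68 in bone and from 5.12 to 5.28 in whole embryo. Its difference was 2.98 ± 0.41 (adjusted p = 0.000576), and the EMD150 bone array was lowest and the RA array highest. Mgp, an inhibitor of calcification made by cartilage and vessels, reached 12.20 to 12.79 in bone, against 7.13 to 7.38 in whole embryo (5.16 ± 0.14, adjusted p = 5.38e-08). Dcn, a small proteoglycan that binds collagen fibrils, was higher by 4.42 ± 0.28 (adjusted p = 5.27e-06), with the RA5 embryo array at 8.94 and the other embryo arrays at 7.31 to 7.67. The single lower gene was Slc20a1, a widely expressed phosphate carrier, at 9.40 to 9.84 in bone and 10.10 to 10.44 in whole embryo (-0.67 ± 0.16, adjusted p = 0.00992). That call was lost without the control or the EMD150 array of either group, at an adjusted p of up to 0.0547, and with the control and RA bone arrays left out (0.126).

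**Figure D1:**
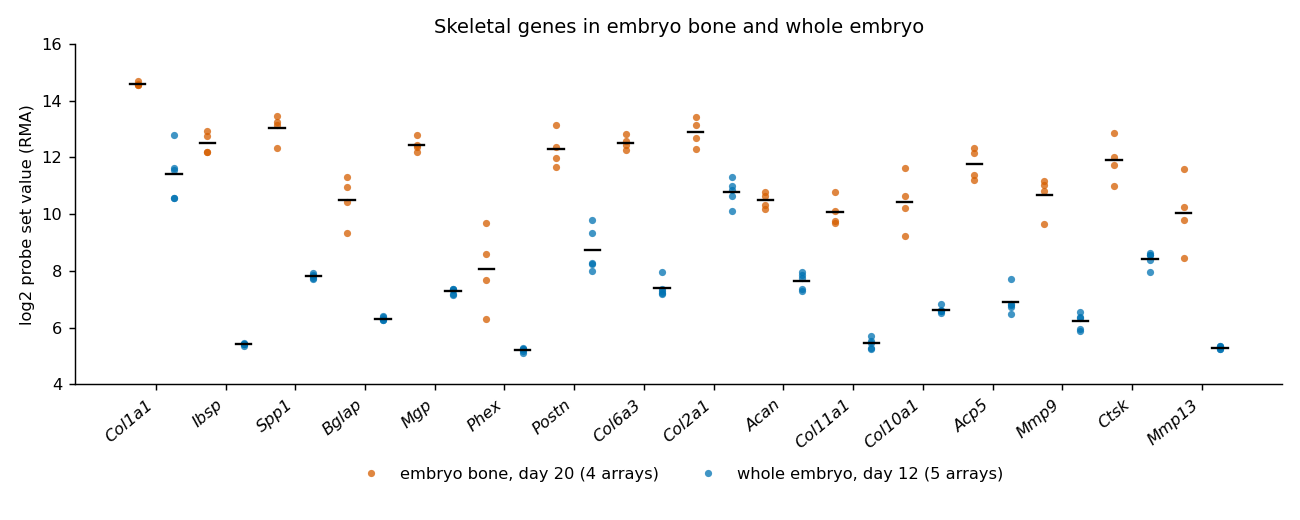
Levels (log2 RMA value, y axis) of 16 genes of bone, fibrous tissue, cartilage and matrix breakdown in 4 embryo bone arrays (orange, left of each pair) and 5 whole embryo arrays (blue, right). Points are single arrays and black bars group means. The groups do not overlap for any of these genes, against 14.5% of 10411 genes higher without overlap. Many of the 16 genes were named for their large differences, so this comparison is a description and not a test. Col10a1, Phex and Mmp13 spread most among the bone arrays.

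Fibrous matrix showed the largest median of the skeletal lists. Of 22 measured genes of periosteum, tendon and fibrous matrix, 21 were higher and 1 lower, with a median of 3.40. Col6a3, a chain of the type VI collagen that surrounds cells, measured 12.44, 12.56, 12.26 and 12.82 in bone and 7.34, 7.23, 7.20, 7.94 and 7.28 in whole embryo, a difference of 5.18 ± 0.17 (limma, adjusted p = 1.03e-07). Aspn, a collagen-binding protein of periosteum, and Fmod, its relative in tendon and cartilage, were higher by 4.89 ± 0.25 (adjusted p = 1.45e-06) and 4.10 ± 0.17 (adjusted p = 5.18e-07). Col12a1, a collagen on the surface of fibrils, was higher by 4.38 ± 0.17 (adjusted p = 3.04e-07). Postn, which encodes periostin of the periosteum, measured 11.96, 12.38, 11.65 and 13.16 in bone and 8.25, 8.01, 8.27, 9.81 and 9.34 in whole embryo. The RA array was highest of the bones and both RA embryo arrays were the highest of the embryos, and the difference was 3.75 ± 0.19 (adjusted p = 1.35e-06). Mfap4, a microfibril protein, was at 11.75, 9.13, 11.46 and 11.87 in bone and 9.37, 9.34, 9.11, 8.44 and 9.38 in whole embryo. The EMD50 bone array lay among the embryo arrays, and the other 3 bone arrays lay more than 2 log2 units above them; the difference was 1.95 ± 0.44 (adjusted p = 0.00742), a call not made with the control and RA bone arrays left out (1.07, adjusted p = 0.2). Fbln1, an early mesenchymal matrix protein, was the lower gene, at 9.16 to 10.11 in bone and 9.98 to 10.75 in whole embryo (-0.60 ± 0.20, adjusted p = 0.046). Its groups overlapped, and its call was lost without the control array of either group, the RA5 or RA56 embryo array or the RA bone array, at an adjusted p of up to 0.243, with the control and RA bone arrays left out (-0.11, adjusted p = 0.863) and without the treatment block (adjusted p = 0.062).

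Genes that govern osteoblasts moved less than the matrix they make. Of 26 measured regulators 11 were higher and 2 lower, with a median of 0.30. The median was 0.19 without the RA bone array and also 0.19 after scaling the arrays to 1 SD, and 6 were higher and none lower without the control and RA bone arrays. Mef2c, a transcription factor of hypertrophic chondrocytes and muscle, was the most raised of the list, at 9.87 to 11.10 in bone and 6.65 to 7.39 in whole embryo (3.39 ± 0.23, adjusted p = 7.55e-06). Wif1, a secreted Wnt antagonist of the osteoblast lineage, measured 9.10, 9.004, 7.74 and 9.07 in bone and 6.33, 6.29, 6.02, 6.13 and 6.34 in whole embryo, a difference of 2.54 ± 0.18 (adjusted p = 1.19e-05), and the EMD150 bone array stood below the other 3. Pth1r, the receptor for parathyroid hormone and its related peptide, differed by 1.83 ± 0.26 (adjusted p = 0.000665), but a second probe set of the gene differed by 0.20 (adjusted p = 0.377). Tnfrsf11b, which encodes osteoprotegerin, the decoy that restrains osteoclast formation, was higher by 1.16 ± 0.19 (adjusted p = 0.00154). The lower regulators were Twist1, a factor of undifferentiated mesenchyme, at -0.78 ± 0.23 (adjusted p = 0.0253), and the BMP receptor gene Bmpr1a at -0.53 ± 0.14 (adjusted p = 0.0177). The Twist1 call was lost without the control or EMD150 array of either group (adjusted p up to 0.112), and the Bmpr1a call without the EMD50 array of either group or the RA bone array (up to 0.064). The genes Tnfrsf11b, Twist1 and Bmpr1a were not called with the control and RA bone arrays left out. Values of Runx2, Sp7 and Sox9, the transcription factors that commit cells to bone and cartilage, are not given here.

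Of 18 measured genes of cartilage matrix, 14 were higher and none lower, with a median of 1.87. Col2a1, the type II collagen of cartilage and notochord, measured 12.67, 13.14, 13.43 and 12.31 in bone and 11.29, 10.87, 10.66, 10.12 and 11.01 in whole embryo. The groups did not overlap and the difference was 2.02 ± 0.25 (limma, adjusted p = 0.000297), a 4.05-fold change. A second Col2a1 probe set was higher by only 0.43 (adjusted p = 0.0434). Acan, the gene of aggrecan, the large proteoglycan that lets cartilage hold water, was at 10.19, 10.33, 10.79 and 10.62 in bone and 7.30, 7.75, 7.85, 7.95 and 7.38 in whole embryo (2.85 ± 0.16, adjusted p = 2.75e-06). The minor fibril collagens Col11a1 and Col11a2 were higher by 4.64 ± 0.18 (adjusted p = 3.56e-07) and 3.54 ± 0.15 (adjusted p = 6.15e-07). A second Col11a1 probe set was higher by only 0.58 (adjusted p = 0.00243). Cnmd, which encodes chondromodulin, an inhibitor of vessel growth in cartilage, was higher by 3.04 ± 0.22 (adjusted p = 1.20e-05).

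Hypertrophic cartilage was marked by Col10a1, the type X collagen made by enlarging chondrocytes ahead of the mineral front. It measured 9.25, 11.64, 10.22 and 10.64 in bone and 6.61, 6.51, 6.60, 6.82 and 6.58 in whole embryo, a difference of 3.84 ± 0.31 (limma, adjusted p = 2.35e-05). The embryo arrays were nearly equal, while the bone arrays spread over more than 2 log2 units, with EMD50 highest and control lowest, each a single array. Of 13 measured growth plate regulators 5 were higher, namely Col10a1, Ddr2, Mia, Npr2 and Sox6, and 1 was lower, with a median of 0.20. Without the control and RA bone arrays 3 were higher. Ddr2, a receptor for fibrillar collagen, was higher by 1.43 ± 0.27 (adjusted p = 0.00304), with a second probe set at 0.20 (adjusted p = 0.336), and Mia, a cartilage protein, by 1.31 ± 0.22 (adjusted p = 0.00181). Npr3, which clears the C-type natriuretic peptide that promotes bone growth, was lower by a small -0.24 ± 0.076 (adjusted p = 0.0336). That call was lost without any 1 bone array, the RA56 embryo array or any of the control and EMD embryo arrays, at an adjusted p of up to 0.141, and with the control and RA bone arrays left out (0.21).

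Osteoclasts, the cells that resorb bone, were marked by their enzymes. Of 11 measured osteoclast genes 5 were higher and none lower, namely Acp5, Mmp9, Ctsk, Tyrobp and Csf1r, with a median of 0.27. Acp5, the tartrate-resistant acid phosphatase of osteoclasts, measured 12.33, 11.39, 11.19 and 12.15 in bone and 6.48, 6.73, 6.81, 7.71 and 6.84 in whole embryo, a difference of 4.94 ± 0.25 (limma, adjusted p = 1.53e-06). Mmp9, a gelatinase by which osteoclasts open the growth plate, was at 11.01, 10.81, 9.66 and 11.16 in bone and 5.87, 6.39, 6.34, 6.55 and 5.95 in whole embryo (4.49 ± 0.27, adjusted p = 4.08e-06). Ctsk, the collagen-cleaving protease of osteoclasts, was at 11.73, 11.999, 10.99 and 12.87 in bone and 8.38, 8.55, 8.64, 8.54 and 7.95 in whole embryo (3.53 ± 0.31, adjusted p = 4.54e-05). In all 3 genes the EMD150 bone array was the lowest of the bones, and every bone array lay more than 2 log2 units above every embryo array. Tyrobp, an adaptor of osteoclast and macrophage receptors, was higher by 1.90 ± 0.18 (adjusted p = 7.22e-05). Against embryo liver of the same day Tyrobp differed by 0.27 ± 0.11 (adjusted p = 0.094), and Acp5 by 2.93 ± 0.20 (adjusted p = 4.06e-05).

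Among 27 measured matrix proteases and inhibitors, 16 were higher and 1 lower, with a median of 0.65, and 8 were higher without the control and RA bone arrays. Mmp13, the collagenase of hypertrophic chondrocytes and osteoblasts, measured 9.78, 10.26, 8.46 and 11.60 in bone and 5.23, 5.35, 5.34, 5.33 and 5.23 in whole embryo. The difference was 4.85 ± 0.40 (limma, adjusted p = 2.71e-05), and the bone arrays spread over more than 3 log2 units with EMD150 lowest and RA highest. Htra1, a serine protease that degrades cartilage matrix, was higher by 3.40 ± 0.30 (adjusted p = 4.81e-05), and the inhibitors Timp2 and Serpine2 by 2.41 ± 0.19 (adjusted p = 2.27e-05) and 2.05 ± 0.21 (adjusted p = 9.68e-05). Mmp11, a protease of tissue remodelling, was the lower gene (-0.57 ± 0.13, adjusted p = 0.00669), a call not made with the control and RA bone arrays left out. Across bone matrix, fibrous matrix, osteoblast regulators, osteoclast genes and proteases the mean level of the list was lowest in the EMD150 bone array and highest in the RA bone array. For bone matrix these means were 11.00, 10.89, 10.64 and 11.33 in bone, against 8.49 to 8.77 in whole embryo. Cartilage matrix had another order, at 9.10, 9.46, 9.52 and 9.20 in bone. Lists outside the skeleton, among them skeletal muscle, cell cycle and mitochondrial respiration (10.87 and 11.25), were also lowest in EMD150 and highest in RA. Others, such as epidermis and neuron, had different orders. The SD over all probe sets of an array was likewise lowest in EMD150 and highest in RA, at 1.63, 1.65, 1.55 and 1.72 in bone. Whether the order is a trait of the whole array was not tested. Each condition has 1 bone array, so these orders have no replicate check.

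**Figure D2:**
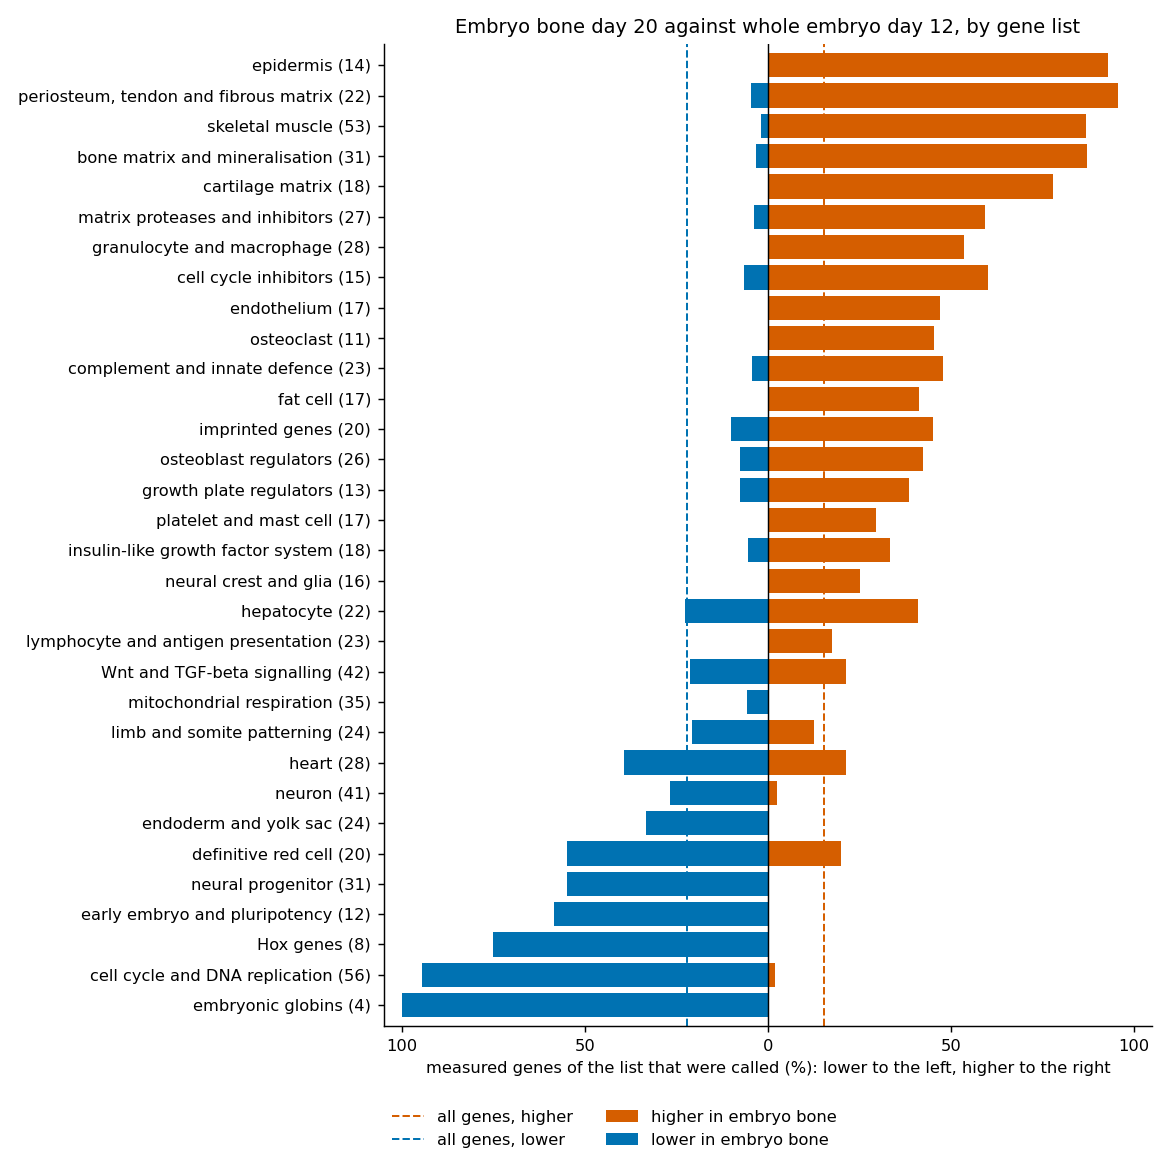
Share of the measured genes of each list that were called higher (orange, to the right) or lower (blue, to the left) in embryo bone day 20 than in whole embryo day 12, in percent; the number of measured genes follows each name. Dashed lines give the shares over 10411 genes, 15.4% higher and 22.2% lower; fibrous matrix, epidermis, bone matrix and muscle lie far to the right of theirs, and embryonic globins and cell cycle genes far to the left.

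Genes of tissues other than the skeleton were also higher in the bone samples. Tissue taken along with the bones and the later day cannot be told apart here, and neither was tested. Skeletal muscle genes were higher in 46 of 53 and lower in 1, with a median of 2.33. Myl1, a light chain of fast muscle myosin, measured 13.59, 13.80, 13.45 and 13.50 in bone and 6.85, 6.80, 6.69, 6.27 and 6.92 in whole embryo, with groups far apart (6.86 ± 0.17, limma, adjusted p = 2.46e-08). Ckm, the creatine kinase of muscle, was at 13.26, 12.14, 12.77 and 13.75 in bone and 6.90, 7.10, 7.13, 7.20 and 7.07 in whole embryo (5.97 ± 0.24, adjusted p = 3.56e-07). The troponin genes Tnnc2 and Tnnt3, the calcium switch of fast fibres, were higher by 5.50 ± 0.21 (adjusted p = 3.04e-07) and 5.21 ± 0.23 (adjusted p = 7.08e-07), and Myh3, the embryonic myosin heavy chain, by 4.77 ± 0.15 (adjusted p = 9.28e-08). Atp1b4, a muscle protein related to the sodium pump, was higher by 5.34 ± 0.25 (adjusted p = 9.18e-07). Tpm3, a tropomyosin of slow muscle and other cells, was the lower gene at -0.60 ± 0.15 (adjusted p = 0.0144), and its other 10 probe sets were divided. Of these 5 were also called lower, at -0.64 to -1.82 (adjusted p of 0.00365 to 0.0143), and 5 were not called, at -0.094, -0.037, 0.14, 0.20 and 0.34. The Tpm3 call was lost without the control array of either group or the EMD150 bone array, at an adjusted p of up to 0.0793, and with the control and RA bone arrays left out (0.103). The summed muscle signal differed among bones: the mean level of the list was 9.91, 9.61, 9.55 and 10.32 in bone, against 7.31 to 7.44 in whole embryo.

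Epidermal genes were higher in 13 of 14, with none lower and a median of 3.14. Krt10, a keratin of the outer, differentiated layers of skin, measured 11.97, 13.10, 12.68 and 11.13 in bone and 6.30, 5.85, 5.81, 5.99 and 6.23 in whole embryo (6.11 ± 0.33, limma, adjusted p = 1.96e-06). Its partner Krt1 and Loricrin, the main protein of the cornified envelope, were higher by 4.21 ± 0.26 (adjusted p = 4.34e-06) and 4.04 ± 0.23 (adjusted p = 3.07e-06), and Sprr1a, another envelope protein, by 4.17 ± 0.21 (adjusted p = 1.45e-06). For Krt10, Krt1 and Loricrin the EMD50 bone array was highest and the RA array lowest. Their part in the skeletal results was not tested.

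Lens genes were among the largest differences. Cryba1, a beta crystallin of the lens, measured 12.53, 12.90, 12.04 and 12.72 in bone and 6.08, 6.11, 6.16, 6.16 and 5.99 in whole embryo (6.46 ± 0.17, limma, adjusted p = 3.21e-08), and Cryga, a gamma crystallin, was higher by 5.76 ± 0.19 (adjusted p = 1.18e-07). In embryo liver of day 20 Cryba1 was at 6.13 to 6.90. The crystallin genes were then viewed as a family, chosen after values were seen and given without a test. In 12 of 13 every bone array lay above every whole embryo array, Crygs being the exception, against 14.5% of 10411 genes. Tooth genes were viewed in the same way. Ambn, which encodes ameloblastin of enamel, measured 10.87, 9.93, 9.18 and 11.40 in bone and 6.96, 7.13, 7.18, 7.30 and 6.85 in whole embryo, and Amelx, the gene of amelogenin, 9.29, 8.14, 7.23 and 9.97 in bone and 5.55, 5.86, 5.78, 5.90 and 5.56 in whole embryo. For both, the EMD150 bone array was lowest and the RA array highest. Dspp, the gene of dentin sialophosphoprotein, had another order, at 8.79, 8.78, 8.56 and 8.40 in bone and 6.69, 7.55, 7.54, 7.78 and 6.83 in whole embryo, with the RA array lowest of the bones, and was at 7.81 to 8.43 in embryo liver. Csap1, a protein of salivary gland, measured 10.41, 8.06, 9.82 and 6.75 in bone and 5.96, 6.03, 5.97, 6.12 and 5.99 in whole embryo, so that the control and EMD150 bone arrays were high and the RA array was near the embryos. The salivary gene Bpifa2 was at 7.37 to 8.45 in bone, 6.635 to 7.27 in whole embryo and 7.24 to 7.92 in embryo liver. Bpifa2f was at 7.43 to 10.36 in bone and 7.20 to 7.82 in whole embryo, with the RA bone array among the embryos. Lens, tooth and salivary gland lie in the head, but which bones were taken is not stated. Tissue taken along and the later day cannot be told apart for these genes either, and neither was tested.

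Liver genes split the bone arrays. Of 22 measured hepatocyte genes 9 were higher and 5 lower, with a median of 0.34, but the count of higher genes was 1 without the control array of either group and 1 without the RA bone array, and none without both bone arrays. The median was 0.52 without the RA5 embryo array and 0.056 without both bone arrays. Alb, the gene of serum albumin, measured 13.60, 10.70, 9.44 and 13.60 in bone and 8.59, 9.53, 9.90, 10.19 and 12.002 in whole embryo. The control and RA bone arrays lay above all embryo arrays and the EMD50 and EMD150 bone arrays lay among them (2.09 ± 0.70, limma, adjusted p = 0.0435). The albumin call was lost without the control or EMD50 array of either group, the RA5 embryo array or the RA bone array (adjusted p up to 0.153), with the control and RA bone arrays left out (0.753) and without the treatment block (1.79, adjusted p = 0.146). A second Alb probe set was not called (2.19, adjusted p = 0.0523). Ahsg, a liver protein that binds mineral in plasma and bone, was at 11.09, 7.95, 7.88 and 9.84 in bone and 6.76, 7.38, 7.51, 7.24 and 8.42 in whole embryo (1.83 ± 0.54, adjusted p = 0.0262), and lost its call without the control array of either group or the RA bone array (up to 0.0817). Both genes stood below their level in embryo liver, 14.94 to 14.98 for Alb and 14.29 to 14.41 for Ahsg. The mean level of the hepatocyte list was 9.36, 7.53, 7.76 and 9.25 in bone, against 7.85 to 9.37 in whole embryo. How far this RNA touches other results was not tested beyond leaving both arrays out, under which 24 bone matrix, 19 fibrous matrix, 13 cartilage and 5 osteoclast genes were called higher.

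Afp, the fetal albumin of yolk sac and liver, ran the other way. It measured 12.34, 7.82, 7.66 and 7.58 in bone and 13.78, 12.73, 12.03, 14.23 and 13.52 in whole embryo, so that the control bone array lay among the embryos and the other 3 far below (-4.41 ± 0.60, limma, adjusted p = 0.000523). Alb and Afp were both high in the control bone array, while Alb alone was high in the RA bone array. Apoa2, a lipoprotein of yolk sac and liver, was at 7.03, 6.94, 7.06 and 8.68 in bone and 11.04, 9.03, 8.195, 12.52 and 11.22 in whole embryo (-2.65 ± 0.42, adjusted p = 0.00115), and the RA bone array overlapped the lowest embryo array. Rbp4, the carrier of vitamin A in blood, was lower by -1.60 ± 0.36 (adjusted p = 0.00719), with 7.34 to 8.98 in bone and 7.77 to 11.71 in whole embryo. Krt18, a keratin of simple epithelia, was lower by -1.98 ± 0.44 (adjusted p = 0.00725). For all 4 genes the EMD50 and EMD150 embryo arrays were the lowest of the embryos. Of 24 endoderm and yolk sac genes 8 were lower and none higher, with a median of -0.41, and 5 were lower without the control array of either group and 5 without the RA bone array. Without both the control and RA bone arrays 2 were lower and the median was -0.078, and the calls of Rbp4 and Krt18 were not made. The Rbp4 call was also lost without the treatment block (adjusted p = 0.0788).

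**Figure D3:**
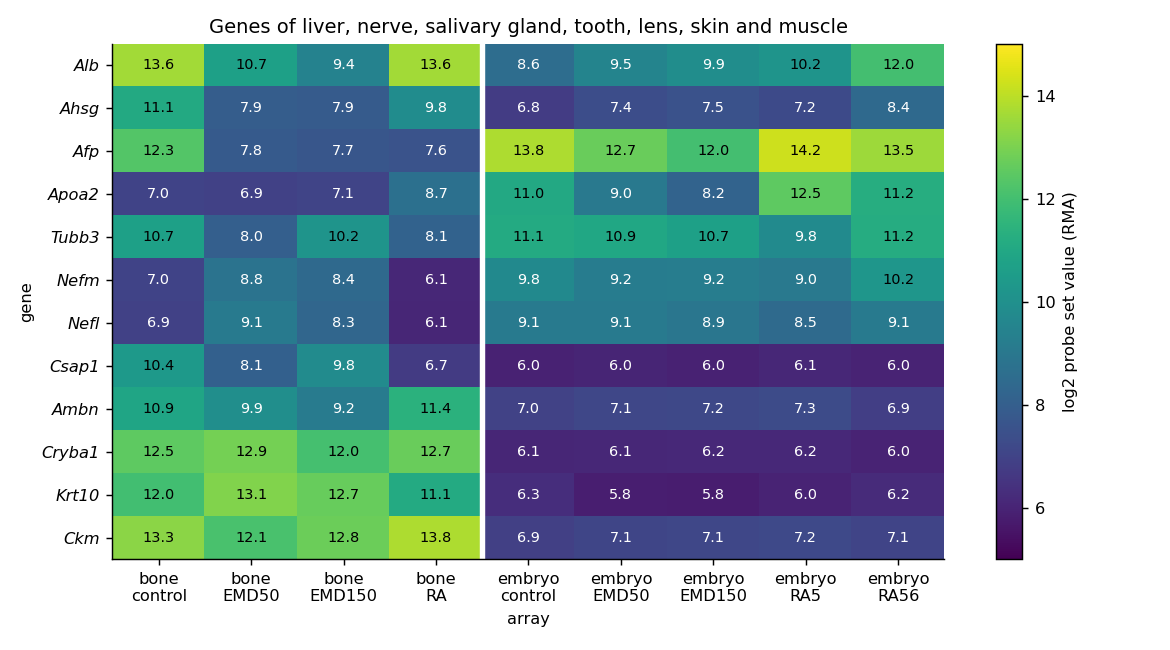
Levels (log2 RMA value, colour and number) of 12 genes of liver and yolk sac (Alb, Ahsg, Afp, Apoa2), nerve (Tubb3, Nefm, Nefl), salivary gland (Csap1), tooth (Ambn), lens (Cryba1), skin (Krt10) and muscle (Ckm) in each array, with the 4 bone arrays to the left of the white line and the 5 whole embryo arrays to the right. Alb is highest in the control and RA bone arrays, Csap1 in the control and EMD150 bone arrays, and Cryba1 is high in all bone arrays.

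Embryonic globins held the 3 largest losses. Haemoglobin of the early embryo is built from zeta and epsilon type chains made by yolk sac red cells, and these give way to adult type chains when red cells come from liver and later from marrow. All 4 measured embryonic globin genes were lower, with a median of -6.20. Hbz, the zeta chain, measured 7.31, 6.94, 7.31 and 6.96 in bone and 14.72, 14.44, 14.33, 14.16 and 14.53 in whole embryo. The groups were far apart and tight, with a difference of -7.33 ± 0.15 (limma, adjusted p = 1.50e-08), a 161-fold lower level in bone. Hbg1, a gamma type chain, was at 7.32, 7.13, 7.31 and 6.44 in bone and 14.17, 13.97, 14.19, 13.98 and 14.27 in whole embryo (-7.11 ± 0.18, adjusted p = 3.21e-08). Hbe1, an epsilon type chain, was at 9.61, 9.56, 8.92 and 9.19 in bone and 14.61, 14.50, 14.69, 14.43 and 14.75 in whole embryo (-5.29 ± 0.17, adjusted p = 1.03e-07). Hbe2 differed little, at 8.89 to 9.11 in bone and 9.39 to 9.92 in whole embryo (-0.62 ± 0.15, adjusted p = 0.0116), and its call was lost without the RA bone array (adjusted p = 0.0725) and with the control and RA bone arrays left out (0.224). Globin genes are alike in sequence, and probes of one may read another.

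Adult globin genes moved the opposite way. Hbb, the adult beta chain, measured 14.84, 14.73, 14.81 and 14.62 in bone and 11.12, 10.27, 9.89, 9.71 and 10.51 in whole embryo, a difference of 4.41 ± 0.22 (limma, adjusted p = 1.44e-06). Hba-a3, an adult type alpha chain, was at 13.05, 12.75, 12.97 and 12.24 in bone and 11.39, 11.58, 11.44, 11.29 and 11.42 in whole embryo (1.28 ± 0.16, adjusted p = 0.000327). In embryo liver of the same day Hbb was at 14.83 to 14.91, a difference of -0.12 ± 0.10 from bone (adjusted p = 0.369), and Hba-a3 at 13.43 to 13.51 (-0.70 ± 0.15, adjusted p = 0.00983). The epsilon gene Hbe1 was at 11.57 to 12.21 in embryo liver, above all bone arrays and below all whole embryo arrays, and stood -2.66 ± 0.14 lower in bone than in that liver (adjusted p = 1.30e-05). For Hbz the difference between bone and embryo liver was -0.92 ± 0.13 (adjusted p = 0.00145).

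Genes of the maturing red cell did not follow the adult globins. Of 20 measured definitive red cell genes 4 were higher, namely Hbb, Ank1, Hba-a3 and Sptb, and 11 were lower, with a median of -0.48; without the control and RA bone arrays 3 were lower. Ank1, the ankyrin that anchors the red cell skeleton and is also made in muscle, was higher by 2.09 ± 0.27 (limma, adjusted p = 0.000397), at 9.85, 8.46, 9.01 and 10.04 in bone and 7.38, 7.40, 7.25, 6.89 and 7.53 in whole embryo. Tal1, a transcription factor of blood stem and red cells, was lower by -1.65 ± 0.18 (adjusted p = 0.000172), with 7.62 to 7.73 in bone and 8.90 to 9.94 in whole embryo. Ahsp, the chaperone of free alpha chains, was at 9.10, 9.41, 9.70 and 8.58 in bone and 10.67, 10.43, 10.20, 10.76 and 11.10 in whole embryo (-1.43 ± 0.27, adjusted p = 0.00289), a call not made with the control and RA bone arrays left out. Rhag, an ammonium channel of the red cell membrane, and Bpgm, the enzyme that makes the regulator of oxygen release, were lower by -1.36 ± 0.19 (adjusted p = 0.00057) and -1.44 ± 0.22 (adjusted p = 0.000987). Embryo liver, the main blood-forming organ of that day, had Tal1 at 10.02 to 10.40, Ahsp at 12.54 to 12.86 and Rhag at 9.66 to 10.59, above every bone array in each case.

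**Figure D4:**
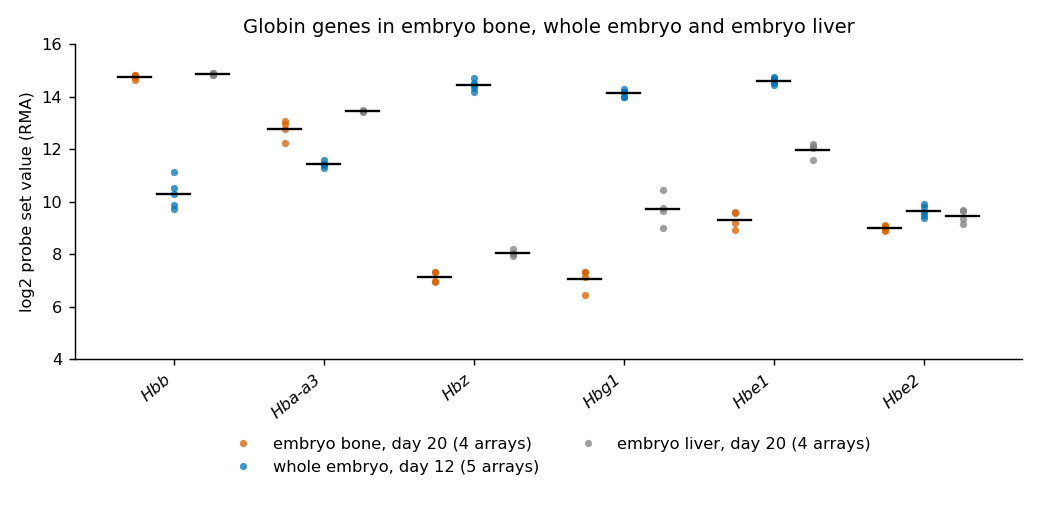
Levels (log2 RMA value, y axis) of 6 globin genes in 4 embryo bone arrays (orange, left), 5 whole embryo arrays (blue, middle) and 4 embryo liver arrays of day 20 (grey, right). Points are single arrays and black bars group means; Hbb is higher in bone and in liver than in whole embryo, and Hbz, Hbg1 and Hbe1 are highest in whole embryo and lowest in bone.

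Macrophage and granulocyte genes were higher in 15 of 28, with none lower and a median of 0.30. C1qc and C1qa, chains of complement C1q that tissue macrophages make, were higher by 2.61 ± 0.16 (limma, adjusted p = 4.34e-06) and 2.23 ± 0.16 (adjusted p = 1.30e-05). C1qa measured 10.09, 9.30, 10.12 and 10.21 in bone and 7.53, 7.54, 7.83, 8.06 and 7.73 in whole embryo, with the EMD50 bone array apart from the other 3. Cd68, a lysosomal protein of macrophages, was higher by 2.13 ± 0.14 (adjusted p = 5.50e-06), and Lyz2, the lysozyme of myeloid cells, by 1.83 ± 0.19 (adjusted p = 9.96e-05). Against embryo liver of the same day C1qc and Lyz2 were lower in bone, by -0.64 ± 0.21 (adjusted p = 0.0421) and -1.90 ± 0.15 (adjusted p = 7.58e-05), and Cd68 was higher by 0.44 ± 0.12 (adjusted p = 0.0208). Lymphocyte and antigen presentation genes were higher in 4 of 23 (B2m, Cd48, Cd74 and Psmb8), a share near the background, with a median of 0.21. That median was 0.10 without the control array of either group, 0.13 with the control and RA bone arrays left out, 0.12 after quantile normalisation and 0.075 after scaling. B2m, the light chain of class I molecules, was higher by 2.77 ± 0.20 (adjusted p = 1.10e-05), with both RA embryo arrays above the other embryos (8.70, 8.50, 8.38, 9.81 and 9.61 in whole embryo), and Cd74, the class II chaperone, by 0.76 ± 0.12 (adjusted p = 0.00136). Platelet and mast cell genes were higher in 5 of 17 (Srgn, Tpsab1, Cpa3, Cma1 and Mcpt1). Srgn, a proteoglycan of secretory granules, was higher by 1.57 ± 0.12 (adjusted p = 1.60e-05), and Tpsab1, a tryptase of mast cells, by 1.41 ± 0.17 (adjusted p = 0.000231).

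Complement and innate defence genes were higher in 11 of 23 and lower in 1, with a median of 0.52, and higher in 7 without the control and RA bone arrays. Ifitm3, an antiviral membrane protein, was at 10.69, 10.91, 9.97 and 11.37 in bone and 7.06, 7.49, 7.21, 7.32 and 7.77 in whole embryo (3.44 ± 0.19, limma, adjusted p = 2.70e-06), and C1s, a serine protease of the complement cascade, was higher by 2.10 ± 0.17 (adjusted p = 2.37e-05). Cxcl12, the chemokine that holds blood stem cells in marrow, was the lower gene at -0.92 ± 0.18 (adjusted p = 0.00392). Its probe sets were opposed: another was higher by 1.29 (adjusted p = 0.00042) and the remaining probe set lay at 0.27 (adjusted p = 0.33), so the gene has no settled direction here. Vessel genes were higher in 8 of 17, with none lower and a median of 0.49, in 5 without the RA bone array (median 0.31) and in 2 without the control and RA bone arrays (median 0.25). Lyve1, a receptor of lymphatic vessels and macrophages, was higher by 1.45 ± 0.15 (adjusted p = 0.000126). Fat cell genes were higher in 7 of 17, with a median of 0.30. Lpl, the enzyme that frees fatty acids from lipoproteins, was higher by 1.92 ± 0.18 (adjusted p = 7.33e-05), and Fabp4, the fatty acid carrier of fat cells, measured 5.98, 7.34, 7.998 and 8.05 in bone and 5.38, 5.39, 5.39, 5.86 and 5.64 in whole embryo (1.90 ± 0.25, adjusted p = 0.000459), with the control bone array lowest.

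Genes of cell division were the broadest loss. Of 56 measured cell cycle and replication genes 53 were lower and 1 was higher, with a median of -1.36, against 22.2% lower over all genes. In 51 of the 56 every bone array lay below every whole embryo array, against 19.4% of 10411 genes. Mcm6, a subunit of the helicase that opens DNA for replication, measured 9.07, 8.65, 8.92 and 9.13 in bone and 11.52, 11.002, 10.86, 10.50 and 11.17 in whole embryo (-2.08 ± 0.19, limma, adjusted p = 5.96e-05). Ccnb1, the cyclin that drives mitosis, was at 9.56, 9.72, 9.27 and 9.74 in bone and 11.38, 11.46, 11.76, 11.36 and 11.73 in whole embryo (-1.95 ± 0.17, adjusted p = 3.82e-05). The mitotic motor Kif22 and the condensin subunit Ncapd2 were lower by -2.09 ± 0.18 (adjusted p = 3.69e-05) and -1.95 ± 0.19 (adjusted p = 8.76e-05). Mki67, the proliferation antigen Ki-67, was at 8.73, 9.56, 8.64 and 9.41 in bone and 10.91, 9.92, 10.11, 10.87 and 11.20 in whole embryo (-1.42 ± 0.25, adjusted p = 0.00198), a call not made with the control and RA bone arrays left out. Embryo liver of day 20 had Mki67 at 10.55 to 11.44, overlapping the whole embryo arrays and above all bone arrays (bone minus embryo liver -1.72 ± 0.17, adjusted p = 0.000242). The mean level of the list was 8.86 to 9.06 in bone and 10.02 to 10.44 in whole embryo, a gap larger than the spread within either group. Ccnd3, a G1 cyclin of muscle and blood, was the higher gene at 0.61 ± 0.17 (adjusted p = 0.0194), a call lost without the EMD50 array of either group or the RA bone array (adjusted p up to 0.0936) and with the control and RA bone arrays left out (0.141).

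Inhibitors of division moved the other way, with 9 of 15 higher, 1 lower and a median of 0.65. Cdkn1a, the inhibitor p21 that stops cyclin-dependent kinases, measured 11.03, 10.53, 10.91 and 11.39 in bone and 8.66, 8.87, 8.92, 9.001 and 8.58 in whole embryo (2.19 ± 0.18, limma, adjusted p = 3.41e-05). Cdkn1c, the imprinted inhibitor p57 of differentiating chondrocytes and muscle, was at 13.20, 13.82, 13.07 and 13.41 in bone and 12.38, 11.92, 11.83, 12.18 and 12.40 in whole embryo (1.26 ± 0.18, adjusted p = 0.000605). Ccng1, a target of p53, was higher by 1.71 ± 0.21 (adjusted p = 0.000301). Tob1, which restrains growth of osteoblasts, was at 8.50, 10.08, 8.21 and 9.94 in bone and 8.01, 7.37, 7.28, 7.29 and 8.16 in whole embryo (1.64 ± 0.34, adjusted p = 0.0051), with the EMD50 and RA bone arrays above the other 2. Gadd45a, a stress gene, was lower by -0.57 ± 0.18 (adjusted p = 0.0371) with overlapping groups, and its call was lost without the control or EMD150 array of either group, the RA56 embryo array or the RA bone array (adjusted p up to 0.16), and with the control and RA bone arrays left out (0.453).

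**Figure D5:**
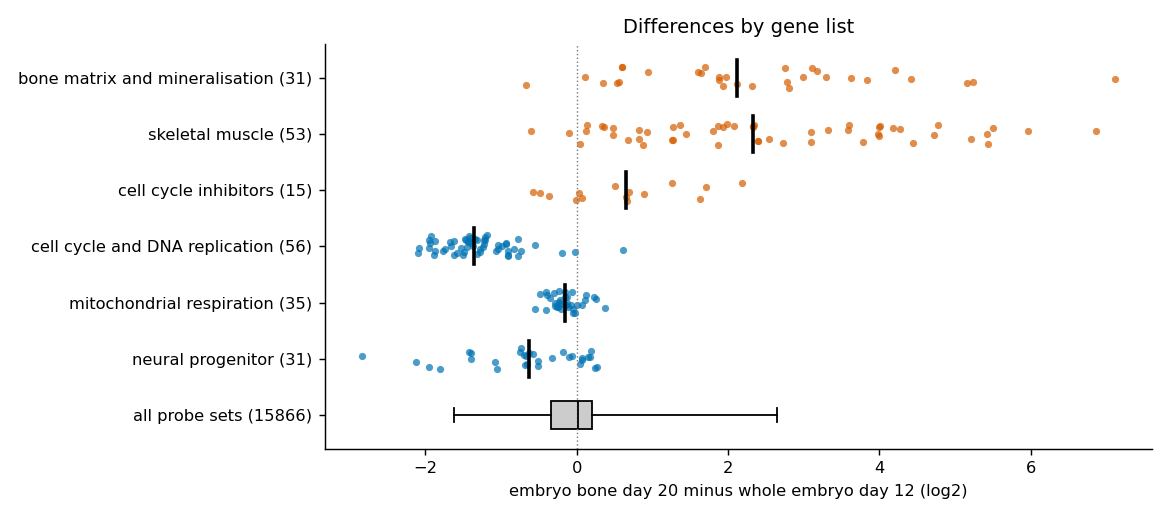
Difference of embryo bone day 20 minus whole embryo day 12 (log2, x axis) for each measured gene of 6 lists; points are genes, with vertical jitter for visibility, and black bars are list medians. The grey box gives the quartiles and median of all 15866 probe sets with whiskers at the percentiles 1 and 99; 53 of 56 cell cycle genes were called lower, while genes of mitochondrial respiration lie close to 0.

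Growth and chromatin genes of the early embryo were lost as well. Of 12 measured genes of early embryo and pluripotency 7 were lower and none higher, with a median of -0.56. Mycn, the MYC factor of embryonic progenitors, measured 7.76, 8.39, 7.78 and 7.46 in bone and 10.79, 10.54, 10.28, 10.22 and 10.57 in whole embryo (-2.68 ± 0.18, limma, adjusted p = 7.23e-06). Hmga1, an architectural protein of fetal chromatin, was at 9.87, 9.62, 10.07 and 10.17 in bone and 12.56, 12.48, 12.68, 12.52 and 12.72 in whole embryo (-2.64 ± 0.14, adjusted p = 1.78e-06). Crabp1 and Crabp2, which bind retinoic acid inside the cell, were lower by -2.23 ± 0.18 (adjusted p = 2.72e-05) and -2.60 ± 0.24 (adjusted p = 6.61e-05). Further large losses outside the list were Hmgb3, a chromatin protein of progenitors, at -2.46 ± 0.17 (adjusted p = 9.98e-06), and Ezh2, the methyltransferase of the Polycomb repressor, at -2.43 ± 0.21 (adjusted p = 4.27e-05). Rps6ka6, a kinase of the ribosomal S6 family, was at 6.05, 6.38, 5.89 and 5.97 in bone and 10.30, 9.56, 9.83, 10.47 and 10.46 in whole embryo, and its difference of -4.004 ± 0.20 (adjusted p = 1.45e-06) was the largest loss after those globins among genes whose groups did not overlap. Sinhcaf, a subunit of the SIN3 histone deacetylase complex, was lower by -3.21 ± 0.16 (adjusted p = 1.23e-06), and Dusp9, a phosphatase of MAP kinases, by -3.19 ± 0.20 (adjusted p = 4.80e-06). Bex4, a small brain-expressed protein, was at 7.73 to 8.43 in bone and 10.30 to 11.22 in whole embryo (-2.69 ± 0.21, adjusted p = 2.24e-05), and at 10.99 to 11.04 in embryo liver of day 20.

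Neural progenitor genes were lower in 17 of 31, with none higher and a median of -0.63. Sox3, a transcription factor of the neural plate, measured 6.38, 6.35, 6.46 and 5.95 in bone and 9.41, 9.20, 9.21, 8.61 and 8.78 in whole embryo (-2.83 ± 0.12, limma, adjusted p = 6.16e-07). Sox11, a factor of immature neurons, was at 7.88, 7.67, 6.61 and 7.01 in bone and 10.34, 8.88, 9.24, 8.63 and 9.76 in whole embryo (-2.13 ± 0.28, adjusted p = 0.000386). Sox2, which keeps neural stem cells undifferentiated, was lower by -1.43 ± 0.18 (adjusted p = 0.0003), but a second probe set lay at -0.056 (adjusted p = 0.676). Lhx2, a homeobox gene of forebrain, eye and limb bud, was lower by -1.81 ± 0.26 (adjusted p = 0.00069), and Mdk, a growth factor of midgestation, by -1.96 ± 0.18 (adjusted p = 6.03e-05). Pax6, the eye and brain regulator, was at 7.93, 8.54, 8.18 and 6.69 in bone and 8.95, 8.89, 8.88, 8.29 and 8.81 in whole embryo (-1.05 ± 0.24, adjusted p = 0.00811). Its EMD50 bone array lay above the RA5 embryo array. Without the control and RA bone arrays 8 progenitor genes were lower, and Pax6 was not called.

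Neuron genes had no common direction. Of 41 measured genes 11 were lower and 1 was higher, with a median of -0.078. The median was -0.12 after quantile normalisation and also -0.12 after scaling, and it was -0.19 without the EMD150 array of either group and -0.035 without the EMD50 array of either group. Without the RA bone array, 6 were lower and 9 higher and the median was 0.048, and without both the control and RA bone arrays 3 were lower and 3 higher. Tubb3, a tubulin of neurons, measured 10.70, 8.03, 10.17 and 8.15 in bone and 11.10, 10.95, 10.68, 9.78 and 11.17 in whole embryo. The control and EMD150 bone arrays were near the embryos, and the EMD50 and RA arrays were low (-1.60 ± 0.43, limma, adjusted p = 0.0177). The call was lost without the EMD50 array of either group or the RA bone array (adjusted p up to 0.0897), with the control and RA bone arrays left out (0.0573) and without the treatment block (0.0521), and another probe set lay at 0.10 (adjusted p = 0.556). The neurofilament genes Nefm and Nefl, which make the skeleton of axons, had another order. Nefm was at 7.03, 8.79, 8.41 and 6.10 in bone and 9.75, 9.20, 9.23, 9.03 and 10.24 in whole embryo (-2.002 ± 0.48, adjusted p = 0.0107), and Nefl at 6.94, 9.13, 8.31 and 6.06 in bone and 9.13, 9.12, 8.94, 8.46 and 9.06 in whole embryo (-1.48 ± 0.40, adjusted p = 0.0169). For both the EMD50 bone array was highest and the RA array lowest. Nefm lost its call without the RA bone array (adjusted p = 0.0528), and Nefl without that array or the control array of either group (up to 0.089), with a second probe set at -0.72 (adjusted p = 0.11). Neither was called with the control and RA bone arrays left out (0.32 and 0.581), and Nefl was not called without the treatment block (0.0575). Crmp1, a guide of growing axons, was lower by -1.31 ± 0.30 (adjusted p = 0.00831), though not with the control and RA bone arrays left out. Gap43, a protein of growing axons, was the higher gene at 0.67 ± 0.21 (adjusted p = 0.0371), a call lost without the control, EMD50 or EMD150 array of either group (up to 0.162), with a second probe set at 0.008 (adjusted p = 0.887). Neural crest and glia genes were higher in 4 of 16 (S100b, Pmp22, Cnp and Gfra2) and lower in none, and in 1 without the control and RA bone arrays. S100b, a calcium-binding protein of glia and also of chondrocytes, was higher by 1.83 ± 0.12 (adjusted p = 5.90e-06), at 8.26, 8.81, 9.10 and 8.55 in bone and 6.41, 7.10, 7.14, 6.82 and 6.64 in whole embryo.

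Heart genes were lower in 11 of 28 and higher in 6, with a median of -0.32. The count of lower genes was 7 without the control array of either group and 7 without the EMD50 array of either group, and 6 without the control and RA bone arrays. Myl7, the atrial myosin light chain, averaged 6.53 ± 0.10 in bone (SD, n = 4) and 9.68 ± 0.35 in whole embryo (SD, n = 5), without overlap (-3.18 ± 0.18, limma, adjusted p = 3.25e-06), and Myh6, the atrial heavy chain, was lower by -1.80 ± 0.13 (adjusted p = 1.35e-05). Tbx5, a factor of heart and forelimb, was at 5.33, 5.37, 5.46 and 5.37 in bone and 6.32, 6.36, 6.45, 7.13 and 7.21 in whole embryo, with both RA embryo arrays highest (-1.24 ± 0.14, adjusted p = 0.000158). Wt1, a factor of epicardium and kidney, was lower by -0.94 ± 0.13 (adjusted p = 0.000577). Among the 6 higher genes of this list were Sln, Mef2c and Tnni1, which skeletal muscle also makes.

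Of 8 measured Hox genes, which give segments of trunk and limb their identity, 6 were lower and none higher, with a median of -0.42, and 3 were lower without the control and RA bone arrays. Hoxa5 measured 6.10, 6.34, 6.74 and 5.85 in bone and 8.27, 8.202, 7.75, 7.93 and 8.42 in whole embryo (-1.88 ± 0.21, limma, adjusted p = 0.000166). Hoxa10 was lower by -1.09 ± 0.11 (adjusted p = 9.47e-05) and Hoxa11, a gene of the middle limb, by -0.59 ± 0.13 (adjusted p = 0.0062), the last not with the control and RA bone arrays left out. Of 24 limb and somite genes 3 were higher (Meox2, Pitx1 and Spry1) and 5 lower (Meis2, Fgf8, Rarb, Pbx3 and Uncx), shares near the background. Of these genes 3 were lower without the control or the EMD150 array of either group, and 1 was higher without either RA embryo array or without the RA bone array. Meis2, a homeobox partner of HOX proteins, was at 8.17, 8.80, 8.38 and 7.01 in bone and 10.87, 10.43, 10.38, 9.88 and 10.65 in whole embryo (-2.46 ± 0.27, adjusted p = 0.000161), with the RA bone array lowest. Fgf8, the signal of the limb ridge, was lower by -0.79 ± 0.11 (adjusted p = 0.000563). Rarb, a retinoic acid receptor whose gene is itself driven by retinoic acid, was at 8.96, 9.01, 9.02 and 8.94 in bone and 9.75, 9.69, 9.79, 9.52 and 9.67 in whole embryo (-0.72 ± 0.13, adjusted p = 0.00231). The bone arrays were nearly equal, and neither RA embryo array was the highest of the embryos. The Rarb call was not made with the control and RA bone arrays left out (-0.73, adjusted p = 0.0783).

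Growth signalling changed gene by gene. Of 20 measured imprinted genes, which are read from 1 parental copy and often set fetal growth, 9 were higher and 2 lower, with a median of 0.26, or 0.42 without the control array of either group. Meg3, a noncoding RNA of the Dlk1 locus, was higher by 2.36 ± 0.16 (limma, adjusted p = 6.97e-06), and Dlk1 itself, an inhibitor of fat cell formation, was at 11.36, 11.91, 11.18 and 12.35 in bone and 9.82, 9.51, 9.73, 10.27 and 10.13 in whole embryo (1.90 ± 0.18, adjusted p = 6.89e-05). Igf2, the fetal growth factor, was at 14.15 to 14.38 in bone and 13.35 to 13.86 in whole embryo (0.69 ± 0.13, adjusted p = 0.00261), while 3 other probe sets of it lay at 0.063, 0.021 and 0.083 and were not called. H19, its noncoding neighbour, was higher by 0.70 ± 0.14 (adjusted p = 0.00378). Gatm, an enzyme of creatine synthesis, was higher by 3.03 ± 0.16 (adjusted p = 1.96e-06), and Plagl1, a zinc finger regulator of growth, by 1.41 ± 0.20 (adjusted p = 0.000665). Nnat, a membrane protein of neural tissue, was lower by -1.10 ± 0.21 (adjusted p = 0.00337), and so was Peg10 (-0.35 ± 0.10, adjusted p = 0.0222), whose call was lost without the control array of either group or the EMD150 or RA bone array (up to 0.106). With the control and RA bone arrays left out 5 imprinted genes were higher and none lower, and Igf2 (adjusted p = 0.0668), H19 (0.0724) and Nnat (0.14) were not called.

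In the insulin-like growth factor system 6 of 18 genes were higher and 1 lower, with a median of 0.19, which was 0.43 after quantile normalisation and 0.32 after scaling. Igfbp7 and Igfbp3, binding proteins that hold or release the growth factors, were higher by 3.22 ± 0.21 (limma, adjusted p = 5.73e-06) and 2.01 ± 0.26 (adjusted p = 0.000362). In both the EMD50 bone array stood above the other 3, as in the Igfbp3 values of 11.55, 12.45, 11.67 and 11.70 in bone and 10.30, 9.61, 9.58, 10.23 and 9.34 in whole embryo. Igf1, the growth factor of bone and muscle, was higher by 1.33 ± 0.17 (adjusted p = 0.000351), and Irs2, an adaptor of the insulin receptor, was lower by -0.82 ± 0.13 (adjusted p = 0.00138). Of 42 Wnt and TGF-beta genes 9 were higher and 9 lower, a share of 21.4% each way; 4 were lower without the control and RA bone arrays. Ligands were among the higher genes: Tgfb3 by 2.17 ± 0.20 (adjusted p = 5.27e-05), Tgfb1 by 1.88 ± 0.22 (adjusted p = 0.000232) and Gdf10, a BMP relative, by 2.04 ± 0.16 (adjusted p = 2.40e-05). Lef1, a nuclear effector of Wnt, the Wnt receptor Fzd2 and the Wnt antagonist Sfrp1 were lower, by -0.89 ± 0.17 (adjusted p = 0.00293), -1.01 ± 0.23 (adjusted p = 0.00715) and -0.91 ± 0.16 (adjusted p = 0.00201). Fzd2 and Sfrp1 were not called with the control and RA bone arrays left out (adjusted p = 0.123 and 0.0969).

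Mitochondrial respiration set a contrast to these lists. Of 35 measured genes none was higher and 2 were lower, with a median of -0.16, against backgrounds of 15.4% and 22.2%. The 2 genes were Sdhb, a subunit of complex II (-0.56 ± 0.15, limma, adjusted p = 0.017), and Atp5pb, a subunit of ATP synthase (-0.49 ± 0.13, adjusted p = 0.0145). Neither call was made after quantile normalisation of the 9 arrays, where the median was 0.028 with 3 genes higher and none lower, or with the control and RA bone arrays left out. After scaling the median was -0.026 with 1 gene higher and 1 lower. Sdhb also lost its call without the control array of either group (adjusted p up to 0.0644), and Atp5pb without the control or EMD150 array of either group or the RA bone array (up to 0.0706). Without the RA5 embryo array 5 genes were lower.

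The differences were set beside those against embryo liver, which shares the bone arrays but not the day of the whole embryo. In that fit 3410 probe sets (21.5%) were higher in bone and 3603 (22.7%) lower. Ibsp was 7.002 ± 0.18 above embryo liver (limma, adjusted p = 1.63e-06) and Col10a1 3.68 ± 0.33 (adjusted p = 0.000151), near their differences from whole embryo of 7.11 ± 0.17 and 3.84 ± 0.31. Both genes averaged alike in whole embryo and embryo liver, Ibsp at 5.415 and 5.51 and Col10a1 at 6.625 and 6.753. With the same bone arrays in both fits, this likeness is not a separate check. Col2a1 stood 5.96 ± 0.14 above embryo liver (adjusted p = 1.50e-06), against 2.02 ± 0.25 above whole embryo. Sox3 differed by 0.07 ± 0.10 from embryo liver (adjusted p = 0.565), Myl7 by -0.18 ± 0.079 (adjusted p = 0.0972) and Ezh2 by 0.08 ± 0.16 (adjusted p = 0.686), against -2.83 ± 0.12, -3.18 ± 0.18 and -2.43 ± 0.21 from whole embryo. Mdk was 2.74 ± 0.15 above embryo liver (adjusted p = 2.01e-05), and Crabp2 1.83 ± 0.25 (adjusted p = 0.00124), although both were lower in bone than in whole embryo.

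Xist, the RNA of the inactive X chromosome, was not called. It measured 9.96, 11.30, 6.003 and 11.71 in bone and 9.10, 9.87, 9.33, 9.89 and 10.88 in whole embryo, a difference of 0.17 ± 0.66 (limma, adjusted p = 0.875). The EMD150 bone array lay more than 3 log2 units below all other arrays of the comparison, and the difference within a treatment was 0.85, 1.42, -3.32 and 1.33 for control, EMD50, EMD150 and RA. The sex of the embryos is not stated in the labels.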

How the data were processed

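RNA of 9 samples, 4 of embryo bone at day 20 and 5 of whole embryo at day 12, was read on 1 single-colour array each. Per the labels' protocols, column-purified total RNA was copied with an oligo dT primer, and biotin was added during transcription in vitro. The authors deposited log2 values per probe set made by RMA, per the submitters' processing notes; no source used here says whether all arrays were processed together. Arrays give no counts, and their number limits the precision. Of 15923 rows 57 array controls were left out. Symbols came from the platform's probe table (12783 probe sets with 1 symbol, 312 with several, 2771 with none), and 12748 were updated through Entrez identifiers to the GRCr8 gene table.

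The 9 arrays were fitted in R 4.3.3 with limma 3.58.1 (lmFit on group and treatment, eBayes with an intensity trend, 4 residual degrees of freedom), and p-values were two-sided and adjusted by the Benjamini-Hochberg method over 15866 probe sets without a filter. A second fit set the bone arrays against 4 embryo liver arrays of day 20 (3 residual degrees of freedom). Treatment is in the model because the comparison was defined so; deviations of same-treatment arrays correlated with r = 0.093 for control, -0.143 for EMD50, 0.384 for EMD150 and 0.319 for RA, so the treatments did not pair the arrays throughout.

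A gene is represented by its probe set with the highest mean over the 9 arrays. Lists (32, with 1068 genes, of which 738 were measured) and members were chosen with earlier results of these data known, and are described by counts and medians without a test. Named genes are the 15 largest called differences per direction without group overlap, up to 4 called genes per list and direction, the 8 per direction with the widest spread over treatments, and a set of skeletal, blood, neural and retinoic acid genes; those printed are what a reader needs. Npr2, Sox6, Csf1r, Sptb, Cd48, Psmb8, Cpa3, Cma1, Mcpt1, Pmp22, Cnp, Gfra2, Meox2, Pitx1, Spry1, Pbx3, Uncx, Sln, Tnni1, Bpifa2, Bpifa2f, the tooth genes and the crystallins other than Cryba1 and Cryga were named after their values were seen. Alternatives were no treatment term, all 22 arrays in 1 fit, the mean of both RA embryo arrays, no trend, robust eBayes, quantile normalisation, scaling to 1 SD, only probe sets above the median level, other probe sets, and leaving out each array.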

Additional observations from a re-analysis of the deposited data

Results flagged for a closer look

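In 17 of 296 groups of values checked, the highest or lowest array stood apart from the others of its group by Dixon's criterion. Chance alone gives about 1 in 20. The criterion sets the gap to the next array against the range of the group, so a small gap can pass in a tight group. Lef1, for example, was at 7.32 in the EMD150 bone array and 7.09 to 7.11 in the other bone arrays. In embryo bone the EMD50 array, the one with the high 3′ to 5′ ratio of GAPDH, was high for Igfbp7 (11.70) and Igfbp3 (12.45) and low for C1qa (9.30) and Mfap4 (9.13). The EMD150 bone array was low for Wif1 (7.74) and high for Lef1 (7.32). The RA bone array was low for Dusp9 (6.09) and high for Apoa2 (8.68), and the control bone array was high for Afp (12.34). In whole embryo the RA5 array was high for Dcn (8.94) and Col6a3 (7.94) and low for Pax6 (8.29), Gdf10 (6.64) and Mfap4 (8.44). The RA56 embryo array was high for Ezh2 (10.98) and low for Col12a1 (6.86), and the control embryo array was high for C1qc (7.27).

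The difference of bone minus whole embryo ran in opposite directions between treatments for Xist, from -3.32 in EMD150 to 1.42 in EMD50. With 1 bone array per treatment this contrast between treatments was not tested.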

How the results depend on the processing

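Leaving out each array in turn gave 1778 to 2657 higher probe sets, 2012 to 3553 lower ones and 1626 to 1906 called at 2-fold or more. Without a treatment block, 2292 were higher and 3149 lower, so the block moved neither count by over 1.5 times; it changed the call of Fbln1, Alb, Rbp4, Tubb3 and Nefl. Probe sets above the median level alone gave 1242 higher and 2615 lower, so that 32.2% of calls were higher, against 42.1% over all probe sets, and 2 bone arrays without the control and RA arrays gave 1191 higher and 1210 lower, with fewer samples. That last setting, chosen after seeing the data, kept 114 of 147 called genes printed here and lost Slc20a1, Fbln1, Mfap4, Tnfrsf11b, Twist1, Bmpr1a, Npr3, Mmp11, Tpm3, Hbe2, Ahsp, Pax6, Hoxa11, Mki67, Ccnd3, Gadd45a, Igf2, H19, Nnat, Peg10, Fzd2, Sfrp1, Alb, Ahsg, Rbp4, Krt18, Tubb3, Nefm, Nefl, Crmp1, Rarb, Sdhb and Atp5pb. Of the 147 called genes, 129 kept their call in all 9 fits that left out an array and 18 did not. These fits are not 9 separate checks. Leaving out the control, EMD50 or EMD150 array of bone gives the same difference as leaving out its counterpart of whole embryo. Xist, not called at 0.17, turned to -0.072 without the block, ran from -0.35 to 1.22 without single arrays (-0.039, -0.21, -0.053 and -0.35 among them) and lay at -0.95 without the control and RA bone arrays. Other probe sets reversed the sign of Tpm3 (0.14, 0.34 and 0.20), Cxcl12 (1.29 and 0.27) and Tubb3 (0.10). The list median of neurons ran from -0.19 to 0.048 without single arrays, the highest without the RA bone array, and was 0.079 without the control and RA bone arrays, and that of mitochondrial respiration to 0.028 after quantile normalisation. The cause of these changes was not tested. Quantile normalisation and scaling moved the median of all probe sets from 0.011 to -0.021 and -0.086.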
